A study of Mus musculus with 8 samples.

Results

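Some stretches of the mouse genome gave an assembled transcript in embryonic stem cells of every line tested in one medium and in no line in the other, and these are the loci described here. The first set, called the ground-state loci, are loci of the J1 ground-state library with at least 1 FPKM that overlap a locus by 1 bp or more in each of the 3 other ground-state libraries and none in any regular-state library. It holds 123 of the 23561 loci of that library, or 0.606% of the 20299 with at least 1 FPKM. The second set, the regular-state loci, follows the mirror rule and holds 31 of the 21391 loci of the J1 regular-state library, or 0.187% of the 16578 with at least 1 FPKM. FPKM is a level scaled to transcript length and library size. The loci were chosen by their presence in the 8 libraries and by their FPKM in J1, so their difference between media is a description and was not tested.

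The cells were mouse embryonic stem cells of 4 lines, each with 1 RNA library per medium and no replicate. The lines were TKO_DAXX_KO, which lacks 3 DNA methyltransferases and DAXX, TKO, which lacks the 3 DNA methyltransferases, J1_DAXX_KO, which lacks DAXX, and J1, from which none of these was removed. DAXX status is given by the titles, since the genotype label of J1_DAXX_KO reads WT as that of J1 does. In the ground state the medium held the MEK inhibitor PD0325901 at 1 μM, the GSK3b inhibitor CHIR99021 at 3 μM (together 2i) and vitamin C at 100 μg/ml for 72 hours, and in the regular state it held none of them. The series set out to compare expression of targets of the DAXX/ATRX complex across these lines. The labels do not say whether a knockout line is 1 clone, or whether libraries came from separate cultures.

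As background, 2i blocks signals that push embryonic stem cells towards differentiation, and cells kept in it resemble the early epiblast more closely than cells in serum-based medium do. Vitamin C is a cofactor of the enzymes that oxidise methylated cytosine, and together with 2i it lowers DNA methylation in embryonic stem cells. DAXX is a histone chaperone that deposits histone H3.3 together with ATRX at repetitive DNA. A transcript assembler such as Cufflinks joins overlapping reads of 1 library into transcripts without a gene list, so a locus is missing when its reads are too few or too scattered to be joined. The loci carry no gene names and their positions are on the mm9 build, for which no annotation was used here, so they are named by position. The stem-cell identity of the cultures and the loss of Daxx and the Dnmt genes were not checked for the same reason. In bulk RNA fewer cells making a transcript and less of it per cell cannot be told apart.

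Library totals, recovered from the read counts and RPKM of the deposited repeat table, ran from 67.4 M reads in the J1 ground-state library to 99.1 M reads in the TKO regular-state library. The number of assembled loci ran from 20133 to 23892 per library. The 4 ground-state libraries held 21797 to 23561 loci and the 4 regular-state libraries 20133 to 23892. The J1 ground-state library, from which the ground-state loci were drawn, was the shallowest and had the most loci with at least 1 FPKM. In it 5% of loci lay under 0.709 FPKM, against 0.530 FPKM in the J1 regular-state library.

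Presence in one medium only was the extreme of a gradient. Of the 20299 J1 ground-state loci with at least 1 FPKM, 17652 had a partner in all 4 ground-state libraries, and 15665 of these, or 88.7%, also overlapped a locus in all 4 regular-state libraries. A further 1052 overlapped a locus in 3 regular-state libraries, 557 in 2, 255 in 1 and 123 in none. In the regular state 14928 J1 loci had a partner in all 4 regular-state libraries. Of these 14237, or 95.4%, overlapped a locus in all 4 ground-state libraries, 417 in 3, 160 in 2, 83 in 1 and 31 in none. Loci present in every library of both media had median levels of 9.33 FPKM in J1 ground state and 8.86 FPKM in J1 regular state. Loci with partners in 0 to 3 libraries of the other medium had medians between 1.57 and 2.08 FPKM. Of the 255 ground-state loci found in a single regular-state library, 134 were found in TKO_DAXX_KO, 75 in TKO, 18 in J1_DAXX_KO and 28 in J1. Of the 83 regular-state loci found in a single ground-state library, 12 were found in TKO_DAXX_KO, 18 in TKO, 40 in J1_DAXX_KO and 13 in J1.

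**Figure D1:**
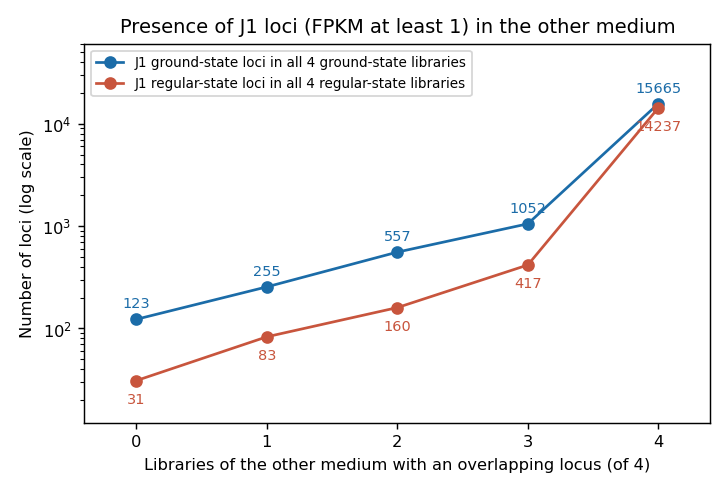
Number of J1 loci of at least 1 FPKM with a partner in all 4 libraries of their own medium (y axis, log scale) by the number of libraries of the other medium with an overlapping locus (x axis). The leftmost points are the 123 ground-state and 31 regular-state loci, and the rightmost the 15665 and 14237 loci found in all libraries of both media.

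The ground-state set was larger than the regular-state set under each of the 23 settings of the rule tried, by factors from 1.43, when anchored on J1_DAXX_KO, to 5.5, with no locus of the other medium within 10 kb. The number itself depended on 1 library in several cases. Leaving out a library other than the anchor lifts a condition of the rule, so the count could then only stay or rise. Without the TKO_DAXX_KO regular-state library the ground-state set held 257 loci, without the TKO regular-state library 198 and without the J1_DAXX_KO ground-state library 189. The regular-state set held 89 loci without the TKO_DAXX_KO regular-state library, 71 without the J1_DAXX_KO ground-state library, and 48 to 55 without the J1 or TKO regular-state or the TKO ground-state library. Anchored on TKO_DAXX_KO, TKO and J1_DAXX_KO in place of J1, the ground-state set held 93, 91 and 57 loci and the regular-state set 36, 33 and 40. Of the 123 ground-state loci, 26 overlapped a locus of the sets anchored on all 3 other lines and 38 overlapped none. Of the 31 regular-state loci the counts were 11 and 4.

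The loci were short and of low level. Ground-state loci spanned 107 to 467021 bp with a median of 1212 bp, against 7741 bp over all J1 ground-state loci with at least 1 FPKM. Regular-state loci spanned 172 to 94951 bp with a median of 1935 bp, against 10982 bp over all J1 regular-state loci of that level. Of the ground-state loci 44.7% were shorter than 1 kb, against 25.03% of all such loci, and of the regular-state loci 41.9% against 18.6%. The J1 level lay under 2 FPKM for 75 of 123 ground-state loci and 16 of 31 regular-state loci. The lowest ground-state loci inside the threshold had 1.01, 1.02 and 1.02 FPKM in J1, and the highest loci of the same pattern outside it had 0.999, 0.988 and 0.981 FPKM. For the regular-state set these values were 1.01, 1.03 and 1.10 FPKM inside and 0.984, 0.960 and 0.952 FPKM outside. In all, 67 ground-state and 60 regular-state loci of the same pattern lay under 1 FPKM. With the threshold at 0.5 FPKM the sets held 183 and 79 loci, at 2 FPKM 48 and 15, and at 5 FPKM 12 and 5.

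In the ground-state set the median level was 1.56 FPKM in TKO_DAXX_KO, 1.59 in TKO, 1.12 in J1_DAXX_KO and 1.65 in J1. In the regular-state set it was 1.18 FPKM in TKO_DAXX_KO, 2.08 in TKO, 2.08 in J1_DAXX_KO and 1.98 in J1. The level was at least 1 FPKM in all 4 libraries for 46 of 123 ground-state and 16 of 31 regular-state loci. It was at least 5 FPKM in all 4 for 4 loci of each set. In the regular-state libraries 31.5% to 40.7% of all loci lay under 1.65 FPKM. In the ground-state libraries 33.5% to 39.3% of all loci lay under 1.98 FPKM. These shares take no account of length, and why the members were missing from the other medium was not tested. Counting error was large at these levels. The deposited FPKM confidence interval had a lower bound of at least 1 FPKM in J1 for 52 ground-state and 20 regular-state loci, and it lay above 0 in all 4 libraries for 103 and 30.

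**Figure D2:**
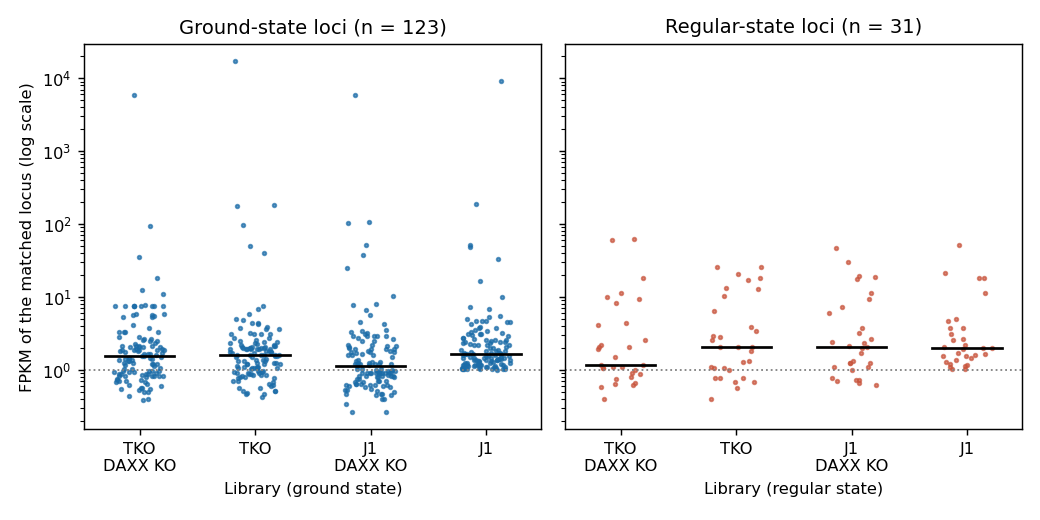
FPKM of the matched locus (y axis, log scale) of each ground-state locus in the 4 ground-state libraries (left panel) and of each regular-state locus in the 4 regular-state libraries (right panel), with the median as a bar and 1 FPKM as a dotted line. Medians lie between 1.12 and 2.08 FPKM, and J1 has no value under 1 FPKM because the rule set that minimum.

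The 5 ground-state loci with the highest lowest level over the 4 libraries were mostly short. A ground-state locus of 107 bp at chr10:3247456-3247563 had 5931 FPKM in TKO_DAXX_KO, 17001 in TKO, 5873 in J1_DAXX_KO and 9193 in J1. Its deposited intervals ran from 2641 to 9220 FPKM in TKO_DAXX_KO, 10194 to 23807 in TKO, 2734 to 9012 in J1_DAXX_KO and 4279 to 14108 in J1, and the 4 libraries gave it spans of 106 or 107 bp. A ground-state locus of 152 bp at chr5:92542413-92542565 had 94.8 FPKM in TKO_DAXX_KO, 182 in TKO, 103 in J1_DAXX_KO and 189 in J1. Both DAXX-knockout libraries lay below both intact ones at each of these loci. The intervals overlap between J1_DAXX_KO and J1 at the chromosome 10 locus. At the chromosome 5 locus they reach 135 FPKM in TKO_DAXX_KO and 150 FPKM in J1_DAXX_KO, and start at 106 FPKM in TKO and 115 FPKM in J1, so they overlap in both backgrounds. A ground-state locus of 8957 bp at chr2:51294238-51303195 had 7.66 FPKM in TKO_DAXX_KO, 40.7 in TKO, 24.6 in J1_DAXX_KO and 16.5 in J1. Its deposited intervals started at 0 in the first 3 of these libraries, so the order of the levels is not resolved. A ground-state locus of 287 bp at chr2:104671758-104672045 had 5.88 FPKM in TKO_DAXX_KO, 6.73 in TKO, 10.4 in J1_DAXX_KO and 4.68 in J1. The intervals of the highest and the lowest library, from 6.41 to 14.5 and from 1.97 to 7.39 FPKM, overlap. The fifth, at chr4:145765494-145765821, had 7.59 FPKM in TKO_DAXX_KO, 50.2 in TKO, 52.0 in J1_DAXX_KO and 5.33 in J1. Its matched locus spanned 550 bp in TKO_DAXX_KO and 327 bp in J1, but 37466 bp in TKO and 37372 bp in J1_DAXX_KO, so the high levels are those of a longer transcript.

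Among the regular-state loci, that of 242 bp at chr2:180478418-180478660 was the steadiest of the 5 with the highest lowest level, with 18.2 FPKM in TKO_DAXX_KO, 12.8 in TKO, 17.9 in J1_DAXX_KO and 11.5 in J1. A locus of 33211 bp at chr18:43863760-43896971 had 9.93 FPKM in TKO_DAXX_KO, 18.4 in TKO, 9.48 in J1_DAXX_KO and 18.4 in J1. It lay 226260 bp from the nearest ground-state transcript, the largest distance in the regular-state set, and the DAXX-knockout libraries were again below the intact ones. Its matched loci in the other 3 lines were shorter, 9292 to 9336 bp. A locus of 2471 bp at chr10:116814633-116817104 had 61.4 FPKM in TKO_DAXX_KO, 10.4 in TKO, 30.3 in J1_DAXX_KO and 21.3 in J1. There the matched locus spanned 35364 bp in TKO_DAXX_KO and 35389 bp in J1_DAXX_KO, against 2493 bp in TKO. A locus of 370 bp at chr12:57713936-57714306 had 8.21 FPKM in TKO_DAXX_KO, 25.9 in TKO, 19.2 in J1_DAXX_KO and 18.1 in J1. A locus of 399 bp at chr5:123511097-123511496 had 11.5 FPKM in TKO_DAXX_KO, 6.48 in TKO, 2.38 in J1_DAXX_KO and 3.74 in J1, so both TKO libraries lay above both J1 libraries.

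The longest loci were of low level. The longest ground-state locus, of 467021 bp at chr15:94459481-94926502, had 1.84 FPKM in TKO_DAXX_KO, 1.99 in TKO, 0.894 in J1_DAXX_KO and 1.68 in J1. It was assembled with spans of 456301, 467131 and 436366 bp in TKO_DAXX_KO, TKO and J1_DAXX_KO, and the nearest regular-state transcript was 39173 bp away. The longest regular-state locus, of 94951 bp at chr6:36665237-36760188, had 1.09 FPKM in TKO_DAXX_KO, 1.08 in TKO, 2.37 in J1_DAXX_KO and 1.44 in J1. Its nearest ground-state transcript was 105249 bp away, and in TKO it spanned 28085 bp.

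Many of the loci lay beside transcripts of the other medium. The same distances were not measured for other loci or positions, so the counts describe the members only. The nearest regular-state locus was within 1 kb of 36 of the 123 ground-state loci, within 10 kb of 68 and at 100 kb or more from 18, with a median gap of 5883 bp. The nearest ground-state locus was within 1 kb of 12 of the 31 regular-state loci, within 10 kb of 21 and at 100 kb or more from 2, with a median gap of 2837 bp. Regular-state transcripts lay within 10 kb on both sides of 29 ground-state loci and on 1 side of 39. Ground-state transcripts lay on both sides of 3 regular-state loci and on 1 side of 18. Asking that no locus of the other medium be within 10 kb left 55 ground-state and 10 regular-state loci.

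Some loci had a matched locus in another line that reached transcripts of the other medium. For 52 ground-state loci, the matched locus in TKO_DAXX_KO, TKO or J1_DAXX_KO extended into a region that a regular-state library also assembled, and the same was true of 10 regular-state loci in the other direction. These loci had median spans of 781 and 906 bp and median gaps of 753 and 672 bp. For the other 71 ground-state and 21 regular-state loci no matched locus touched the other medium. Those had median spans of 3075 and 3341 bp and median gaps of 20294 and 6548 bp. The division itself uses contact with transcripts of the other medium, so a difference in gap is in part built in and is given as a description. Bounds also varied between lines. A reciprocal overlap of at least 50% in all 4 libraries was met by 32 ground-state and 12 regular-state loci. Both no contact with the other medium and a reciprocal overlap of at least 50% with the matched locus of each line, called agreeing bounds below, held for 27 ground-state and 10 regular-state loci. This division was made after the data were seen.

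**Figure D3:**
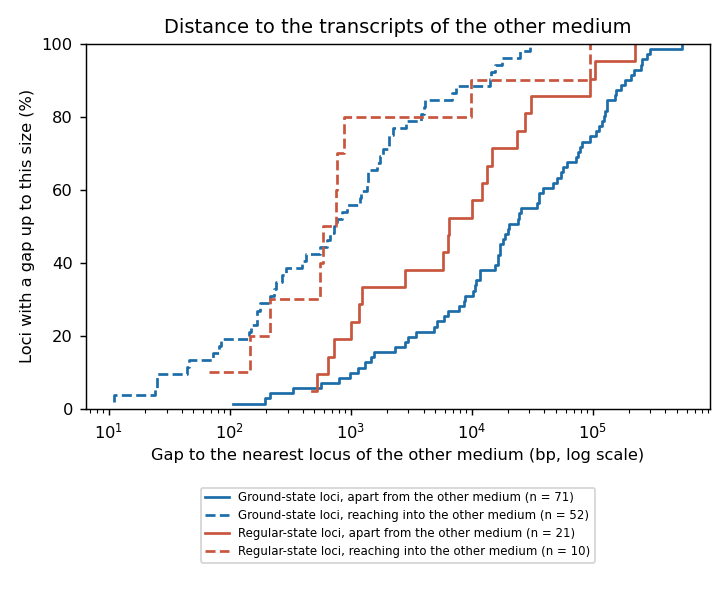
Cumulative share of loci (y axis, %) by the gap in bp to the nearest locus of the other medium (x axis, log scale), for loci with no matched locus that touches the other medium (solid) and for loci with at least 1 that does (dashed). Median gaps are 753 and 672 bp for the dashed and 20294 and 6548 bp for the solid lines, a difference that the division by contact in part builds in.

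The 27 ground-state loci with agreeing bounds had a median span of 5510 bp and median levels of 1.79 FPKM in TKO_DAXX_KO, 1.25 in TKO, 1.04 in J1_DAXX_KO and 2.18 in J1. They include the loci on chromosomes 10, 5, 2 and 15 given above. Another of them, chr12:71291802-71328640, had 4.10 FPKM in TKO_DAXX_KO, 1.92 in TKO, 1.93 in J1_DAXX_KO and 4.62 in J1, and stood 78594 bp from the nearest regular-state transcript. Its spans in the 4 libraries lay between 36766 and 36844 bp. The locus chr13:41860009-41942961 had 1.68 FPKM in TKO_DAXX_KO, 1.20 in TKO, 0.936 in J1_DAXX_KO and 3.10 in J1 over 82952 bp, at 123290 bp from the nearest regular-state transcript. The 10 regular-state loci with agreeing bounds had a median span of 950 bp and median levels of 2.00 FPKM in TKO_DAXX_KO, 2.45 in TKO, 1.26 in J1_DAXX_KO and 2.03 in J1. The longest of them, chr15:54670508-54751522, had 1.94 FPKM in TKO_DAXX_KO, 2.87 in TKO, 11.3 in J1_DAXX_KO and 1.60 in J1, so the single J1_DAXX_KO library stood apart. It was 95161 bp from the nearest ground-state transcript. These 3 loci were picked after their values were seen.

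Several ground-state loci lay close together. Merging loci within 10 kb left 105 ground-state and 29 regular-state regions. The largest cluster held 8 ground-state loci between chr8:44457158 and chr8:44489054. All 8 matched a single locus of 55859 bp and 7.402 FPKM in TKO_DAXX_KO, while TKO had 0.606 to 3.795 FPKM and J1_DAXX_KO 0.678 to 5.65 FPKM over loci of 577 to 3915 bp, and J1 had 1.14 to 7.20 FPKM. Regular-state transcripts lay 81 to 1855 bp from them, so the cluster is no set of independent loci. It was picked after its values were seen. Within the longest ground-state locus on chromosome 15 lie 3 further members. Their levels in the other 3 lines are those of the same long transcripts, except for 1 of them in TKO, where the matched locus spanned 516 bp, and the 4 loci are not independent either. Of the regular-state loci 0 lay within 10 kb of a ground-state locus and 1, on chromosome 14, within 100 kb. How many would be so close by position alone was not tested.

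Repeats were looked at because the series is about repetitive DNA. The repeat table lists 17857 elements, of which 15389 are LINE and 2455 LTR elements. Listed elements overlapped 3 of 123 ground-state loci, or 2.44%, against 3.36% of all J1 ground-state loci with at least 1 FPKM. They overlapped 1 of 31 regular-state loci, or 3.23%, against 3.73% of all J1 regular-state loci of that level. All 5 elements concerned were LINE1 elements, which encode the proteins for their own copying. No LTR element overlapped a locus of either set, against 0.931% and 1.03% of all loci. No MERVL-int element, the internal part of a retrovirus family transcribed in the early cleavage embryo, lay within 10 kb of one, against 0.808% of all J1 ground-state and 0.959% of all J1 regular-state loci. Shares as small as those could not be resolved with 123 and 31 loci. The loci compared were also of unequal length. Median spans were 1212 bp in the ground-state set against 7741 bp over all such loci, and 1935 against 10982 bp in the regular state. The part of length in these shares was not tested.

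The elements inside the loci did not mirror the assembly. An L1Md_T element at chr18:43870216-43876428, inside the regular-state locus on that chromosome, had 1.43 RPKM in TKO_DAXX_KO, 3.27 in TKO, 3.78 in J1_DAXX_KO and 2.11 in J1 in the ground state. In the regular state it had 2.12 RPKM in TKO_DAXX_KO, 5.12 in TKO, 2.07 in J1_DAXX_KO and 2.03 in J1. The ranges overlap, and the element had 677 to 2154 reads per library in the medium where no locus was assembled over it. An L1Md_T element at chr4:86115028-86120282 lies inside a ground-state locus of 93262 bp that had 0.544 FPKM in TKO_DAXX_KO, 1.06 in TKO, 0.820 in J1_DAXX_KO and 1.45 in J1. The element had 0.80, 1.95, 2.01 and 1.75 RPKM in these lines in the ground state and 1.68, 3.16, 1.49 and 1.48 RPKM in the regular state, in the same order. The other 3 elements, of L1Md_F2, had 0.01 to 0.16 RPKM in the ground state and 0.01 to 0.21 RPKM in the regular state. They lie in the longest ground-state locus and in a ground-state locus at chrX:110753523-110837984, which had 1.40 FPKM in TKO_DAXX_KO, 0.853 in TKO, 0.824 in J1_DAXX_KO and 2.17 in J1. Copies of a LINE1 family share much of their sequence, and how the authors counted a read with several possible origins is not given in the sources used here. A read counted in one of these elements may come from another copy.

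**Figure D4:**
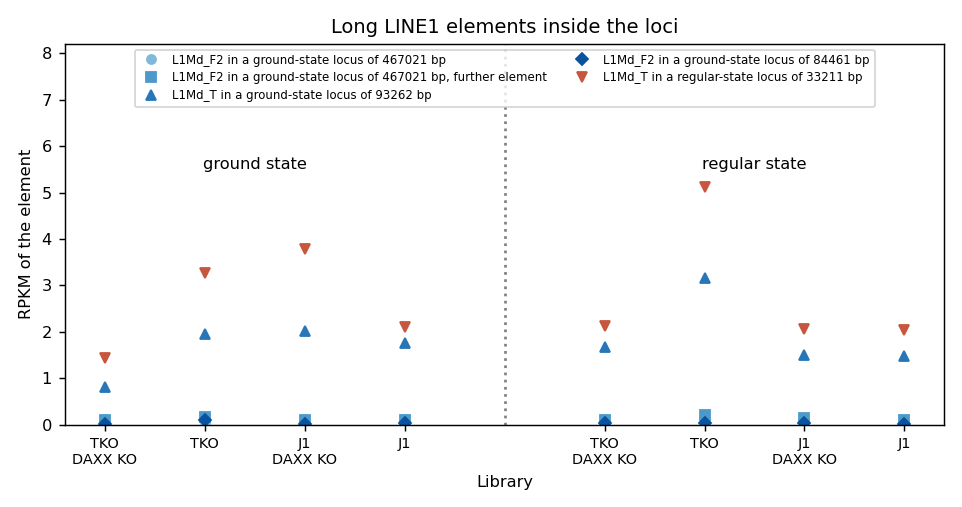
RPKM (y axis) of the 5 listed LINE1 elements inside the loci in the 4 ground-state (left) and 4 regular-state libraries (right). The L1Md_T element of the regular-state locus has 1.43 to 3.78 RPKM in the ground state and 2.03 to 5.12 RPKM in the regular state, and the 3 L1Md_F2 elements stay at or under 0.21 RPKM.

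Within each medium the loci were compared between DAXX-knockout and DAXX-intact lines, and between TKO and J1 lines. The rule had used the level in J1 and the presence of a locus in all 4 libraries of the medium, so the comparisons are not free of it. All J1 loci with a partner in the 4 libraries and a mean of at least 1 FPKM entered a limma fit on log2(FPKM + 1), a scale that understates the change of low loci. This gave 18340 loci in the ground state, with 107 of the 123 ground-state loci, and 16335 in the regular state, with 30 of the 31 regular-state loci. With 1 residual degree of freedom limma called none of them at an adjusted p under 0.05: 0 members in each of the 4 comparisons, beside 0% of all loci in each direction. At an unadjusted p under 0.05 in limma there were 6 of 107 ground-state loci for DAXX, beside 587 of all 18340. For the DNMT genes there were 2 of 107, beside 770 of all 18340. Of the regular-state loci there were 3 of 30 for DAXX, beside 625 of all 16335. For the DNMT genes there was 1 of 30, beside 1863 of all 16335. Whether the shares of members differ from those of all loci was not tested. A p that misses the threshold in so small a design does not show that the levels were equal.

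With DAXX knockout the ground-state loci had a median log2 change of −0.14, against 0.012 over all loci tested. The median was 0.065 in TKO and −0.35 in J1, where the level without knockout had been required to reach 1 FPKM. In J1_DAXX_KO the ground-state library was the deepest of its medium, with 91.8 M reads against 67.4 M reads in J1, and it gave the lowest level for 53 of the 123 ground-state loci. J1 gave the lowest level for 10. The part of the depth and of the J1 threshold in this difference was not tested. Of the 123 loci 17, or 13.8%, were higher and 44, or 35.8%, lower with DAXX knockout in both backgrounds, against 24.2% and 25.1% of all J1 ground-state loci with a partner in the 4 libraries. The share with the same sign in both was 49.6% of the members and 49.4% of all loci. Of the 27 loci with agreeing bounds, chosen without the filter on the mean, 0 were higher and 8 lower in both. Of the 28 members tested with matched bounds alone, 2, or 7.14%, were higher and 9, or 32.1%, lower in both. Of all loci tested with matched bounds, 20.1% were higher and 29.4% lower in both. The median varied with the library left out and with the filter. It was −0.36 without the TKO_DAXX_KO, −0.21 without the TKO, −0.06 without the J1_DAXX_KO and −0.09 without the J1 ground-state library. Each fit with a library left out also dropped the covariate, so it took in part of the difference between TKO and J1 lines. The median was −0.27 with median-centred libraries, −0.29 with matched bounds, −0.24 with a pseudocount of 0.1 and 0.25 over the 15 loci with a mean of at least 5 FPKM. Over all loci it was −0.13, −0.046, 0.011 and 0.019 under these settings. For the regular-state loci the median log2 change with DAXX knockout was −0.065, against 0.098 over all loci, with −0.14 in TKO and −0.035 in J1. It was 0.098 without the J1 regular-state library, −0.17 without the J1_DAXX_KO and −0.12 without the TKO or the TKO_DAXX_KO one. It was −0.26 with median-centred libraries and −0.30 over the 10 loci with a mean of at least 5 FPKM. Over all loci the median was −0.096 and 0.070 under these settings. Of the 31 loci 6, or 19.4%, were higher and 8, or 25.8%, lower in both backgrounds, against 32.8% and 20.6% of all loci.

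**Figure D5:**
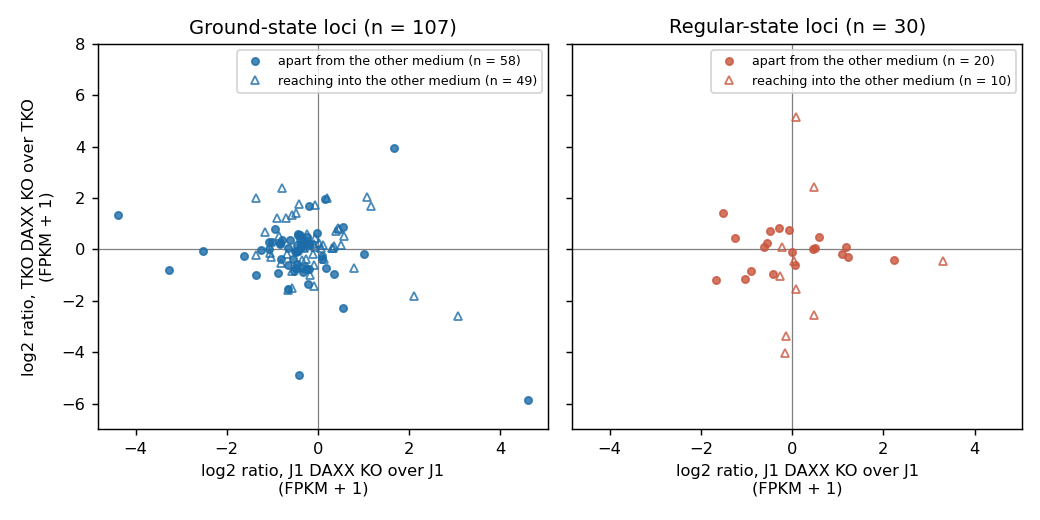
log2 ratio of FPKM + 1, TKO_DAXX_KO over TKO (y axis) against J1_DAXX_KO over J1 (x axis), for the 107 ground-state (left) and 30 regular-state loci (right) that entered the fit, filled where no matched locus touches the other medium. Ground-state loci have a median of −0.35 in J1 and 0.065 in TKO.

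Between TKO and J1 lines the ground-state loci had a median log2 change of 0.063, against 0.077 over all loci, with 0.17 between the DAXX-knockout lines and −0.098 between the intact ones, the pair that holds J1 and so its required 1 FPKM. It was negative, between −0.13 and −0.003, with no filter, with matched bounds, with median-centred libraries and without the J1_DAXX_KO or the TKO ground-state library. It was 0.29 without the J1 ground-state library. Here too each fit with a library left out dropped the covariate, so it took in part of the DAXX difference. Over all loci the median was −0.11 with median-centred libraries, 0.003 with matched bounds and 0.069 with no filter. The regular-state loci had a median of −0.048, against 0.16 over all loci, with −0.24 between the DAXX-knockout lines and −0.17 between the intact ones, and of 0.51 over the 10 with a mean of at least 5 FPKM. It was −0.32 without the TKO, −0.16 without the J1_DAXX_KO, −0.12 without the TKO_DAXX_KO and −0.10 without the J1 regular-state library, −0.33 with median-centred libraries and −0.23 with matched bounds. Over all loci the median was −0.12 with median-centred libraries, 0.028 with matched bounds and 0.11 at a mean of at least 5 FPKM. In TKO against J1 lines 33 ground-state loci, or 26.8%, were higher and 30, or 24.4%, lower in both pairs, against 31.9% and 22.999% of all loci. Of the regular-state loci 3, or 9.68%, were higher and 10, or 32.3%, lower in both, against 40.1% and 24.1% of all loci. J1 is in one pair of each comparison, and the part of its threshold in these shares was not tested. The loci at chr10:3247456-3247563, chr5:92542413-92542565 and chr18:43863760-43896971, where both DAXX-knockout libraries lay below both intact ones, had log2 changes with DAXX knockout of −1.08 ± 0.68, −0.90 ± 0.20 and −0.86 ± 0.28 (SE). Their adjusted p in limma was 0.972, 0.972 and 0.865. At chr4:86091672-86184934 the order was the same, but its mean was under 1 FPKM and it did not enter the fit. Both DAXX-knockout libraries lay above both intact ones at the regular-state loci chr2:180478418-180478660 and chr10:116814633-116817104, with log2 changes of 0.54 ± 0.27 and 1.47 ± 0.59 (SE) and an adjusted p of 0.865 in limma for each. At chr10:116814633-116817104 the matched loci were far longer in both DAXX-knockout libraries than in TKO and J1, as given above. The change there compares transcripts of unequal length. The regular-state locus at chr5:123511097-123511496 had a log2 change of 1.27 ± 0.48 (SE) between TKO and J1 lines with an adjusted p of 0.440 in limma. Both TKO libraries also lay above both J1 libraries at the longest ground-state locus, chr15:94459481-94926502, with a log2 change of 0.37 ± 0.28 (SE). They lay below both at the longest regular-state locus, chr6:36665237-36760188, with −0.46 ± 0.29 (SE). The adjusted p in limma was 0.824 and 0.517.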

How the data were processed

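Per the labels' protocols, polyadenylated RNA of the cytoplasm was selected with oligo-dT and libraries kept strand through dUTP. The submitters' processing notes name TopHat, Bowtie2 2.2.4, Cufflinks, Cuffdiff and mm9 but not what each was used for. The deposited FPKM, with confidence bounds, belong to loci listed for each library separately, per the file headers. The repeat table holds read counts per element and the authors' RPKM, per the file headers. FPKM are not counts and carry no depth of their own. Positions are printed as deposited, and whether they start at 0 or 1 is not given.

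Overlaps were computed in Python 3.11.15 with pandas 2.3.3 and checked against bedtools. A locus took, in each other library, the level of the locus with the largest overlap. limma 3.58.1 in R 4.3.3 used a trend, the other genotype factor as covariate, two-sided tests and Benjamini-Hochberg adjustment, and was tested on simulated data. There, with the spread of these libraries, it missed nearly all changes but the most extreme, so a count of 0 carries little information. With 1 library per group, p-values rest on how the 2 pairs of a factor differ, interaction included, and on spread borrowed across loci. The 2 pairs share no library. Interactions could not be tested. Alternatives covered overlap, threshold, anchor, pseudocount, filter, scaling, covariate and omission of each library.

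The members and the lists were chosen with earlier results of these data known. Named loci are, per set, the 5 with the highest lowest level, those with a listed repeat and the longest, with others marked as picked later. No locus was named for a call, since none was made. No sequence is printed, since no mm9 genome was used here.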

Additional observations from a re-analysis of the deposited data

Results flagged for a closer look

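The median log2 change of the ground-state loci with DAXX knockout was 0.065 in TKO and −0.35 in J1, and that with loss of the DNA methyltransferases was 0.17 between DAXX-knockout lines and −0.098 between DAXX-intact lines. Each was singled out because the 2 pairs of libraries went in opposite directions. Over all loci tested the medians were 0.012 in TKO and −0.011 in J1 for DAXX, and 0.057 and 0.056 between DAXX-knockout and DAXX-intact lines for the DNA methyltransferases. The negative pair holds J1 in each case, where the rule required at least 1 FPKM, so the opposite directions draw on values that chose the loci. The difference was not tested, since each pair holds 1 library a side.

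The same held for single loci, which were searched for only among those named for their lowest level, a listed repeat or their length. At chr4:145765494-145765821 the log2 change with DAXX knockout was −2.573 in TKO and 3.065 in J1, and that of TKO against J1 lines was −2.625 between DAXX-knockout lines and 3.014 between intact lines. The matched loci were of unequal length there, 550 and 37466 bp in TKO_DAXX_KO and TKO. At chr2:51294238-51303195 the change of TKO against J1 lines was −1.562 between DAXX-knockout lines and 1.249 between intact lines, with deposited intervals that start at 0 in 3 of 4 libraries. These differences were not tested.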

How the results depend on the processing

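The ground-state set of 123 and the regular-state set of 31 held 32 and 12 loci with a reciprocal overlap of at least 50% for presence, 87 and 19 with no locus of the other medium within 1 kb, and 55 and 10 with none within 10 kb. They held 183 and 79 at 0.5 FPKM, 48 and 15 at 2 FPKM, 12 and 5 at 5 FPKM, and 46 and 16 with at least 1 FPKM in all 4 libraries. Anchored on J1_DAXX_KO the ground-state set held 57. Where no matched locus touches the other medium there were 71 and 21, with a reciprocal overlap of at least 50% with any locus of each line too 28 and 10, and with the matched locus itself 27 and 10, all 3 settings added after the data were seen. With each library left out in turn the sets ranged from 97 to 257 and from 43 to 89, outside 1.5 times the full count without the TKO_DAXX_KO regular-state (257 and 89), TKO regular-state (198 and 48) or J1_DAXX_KO ground-state library (189 and 71), and for the regular-state set also without the TKO ground-state (49) or J1 regular-state library (55). Without the J1 library of its own medium a set was anchored on J1_DAXX_KO. Leaving out any other library could only keep or raise the count.

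Over all loci, limma's count of 0 became 1 for DAXX in the ground state with matched bounds, and for the DNMT genes in the ground state 1 with median-centred libraries and 5 without covariate. With each library left out, which also dropped the covariate, it ranged from 0 to 14 for DAXX and from 0 to 19 for the DNMT genes in the ground state and from 0 to 6 for DAXX in the regular state. It stayed at 0 for the DNMT genes in the regular state. No member was called under any of these settings. Centring moved the median change over all loci for DAXX to −0.13 in the ground state and −0.096 in the regular state, against 0.012 and 0.098 as deposited, and for the DNMT genes to −0.11 and −0.12, against 0.077 and 0.16. No paired analysis was possible because the labels give no replicate numbers to pair libraries by; the fit pairs lines only through the other genotype factor as covariate.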

Other observations

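The ground-state loci lay on 19 chromosomes, with 12 on chromosome 4 and 11 each on chromosomes 10 and 15. Chromosome 15 held 8.94% of them, against 3.77% of all J1 ground-state loci with at least 1 FPKM, and 4 of its 11 loci are the longest locus and those inside it. The regular-state loci lay on 15 chromosomes, with 5 on chromosome 10, or 16.1% against 4.61% of all J1 regular-state loci of that level. At chrX:59763708-59804322 a ground-state locus, picked after its values were seen, had 18.0 FPKM in TKO_DAXX_KO, 3.92 in TKO, 1.30 in J1_DAXX_KO and 1.06 in J1, and its matched loci spanned 44298, 21611, 3944 and 40614 bp in the same order.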
